A study of Mus musculus with 6 samples.

Results

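The 39 HOX cluster genes of the mouse were followed in astrocytes with and without JAG1 overexpression. They were taken as every row, of 23282 gene rows, whose symbol is HOX followed by a cluster letter from A to D and a number. This rule used no measured value, but it was chosen with earlier results of these data known. The cells were murine astrocytes of an Ink4a-/- line, named Ink4a/Arf-/- in the study, from brain, with no brain region given. Control cells carried the empty vector pcDNA3.1-puro and JAG1-overexpressing cells carried pcDNA3.1-JAG1-puro, and each group had 3 libraries. All 6 libraries share the Ink4a-/- background, although the labels give the control genotype as WT, which was read as without added JAG1. The sources do not say if the replicate libraries stem from independent transfections or if either population was a clone, so p-values measure only the spread between these libraries, which may be technical. Reads came from the 3' ends of polyadenylated transcripts (QuantSeq), so a level in CPM (read counts scaled to a common library size, with TMM factors) does not rise with transcript length and can be compared between genes.

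HOX genes encode homeodomain transcription factors that give cells their position along the head to tail axis. They lie in clusters in which the order of the genes follows the order of their expression, with low paralog numbers used toward the head and high numbers toward the tail, and genes with the same number in different clusters are paralogs. In the developing nervous system they are used in the hindbrain and spinal cord, while the forebrain and midbrain normally keep them silent under Polycomb proteins. Retinoic acid opens the clusters from the low numbers, and PBX and MEIS proteins bind DNA together with HOX proteins.

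The libraries held between 14341634 and 20489062 counts, so that 3 reads, taken as the limit of detection, corresponded to between 0.148 and 0.206 CPM. Of 11712 genes with enough reads to be tested, 55.1% were called at an adjusted p under 0.05 (edgeR's quasi-likelihood test, Benjamini-Hochberg), 27.4% higher and 27.7% lower in JAG1-overexpressing cells. Over all of them the median log2 fold change was 0.0039. Chromosomes differed in this. The median was −0.53 on chromosome 15, where 75.3% of tested genes were lower, and 0.61 on chromosome 19, where 74.2% were higher, while it was 0.02 on chromosome 6, 0.0036 on chromosome 11 and −0.0044 on chromosome 2. The part of the shifted chromosomes in the results was not tested. Of 12 astrocyte markers, Gfap and Aqp4 were at 0 in all 6 libraries, and the summed level of the list lay between 338 and 399 CPM in control and between 124 and 137 CPM in JAG1-overexpressing libraries, with Sox9 falling from 181 to 17.97 CPM. Fibroblast and meningeal markers summed to between 741 and 813 CPM against 450 to 485 CPM, with Lum at 0, and neuron markers to between 100 and 110 CPM against 58.6 to 61.7 CPM, with Snap25, Syt1 and Gad1 at 0. Single markers went against these sums, Col1a2 rising from 3.35 to 50.7 CPM and Map2 from 25.1 to 51.3 CPM. Microglial, oligodendrocyte lineage and endothelial markers each summed to at most 4.08 CPM in every library, with Mog, Mag, Sox10 and Olig1 at 0. In a bulk sample, fewer cells of a type and less RNA per cell cannot be told apart, and the part of these markers in the HOX results was not tested. Jag1 itself rose from 10.3 ± 1.18 to 14.2 ± 0.862 CPM (mean ± SD, n = 3 per group, as for all levels below), a log2 fold change of 0.46 (SE 0.11, adjusted p = 0.00446). Reads from the 3' end of a transcript that ends in vector sequence need not fall on the Jag1 row, so this row is a limited check of the labels.

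HOX reads came almost entirely from the Hoxa cluster in control cells, and from Hoxa with a second contribution from Hoxb in JAG1-overexpressing cells. Over 3 reads in every library were found for 8 HOX genes in control cells and for 14 in JAG1-overexpressing cells. The 8 included Hoxa3, Hoxa4, Hoxa5, Hoxa7, Hoxa9, Hoxa10 and Hoxb5, and all 8 also passed this limit in JAG1-overexpressing cells. Another 6, Hoxa2, Hoxb3, Hoxb4, Hoxb6, Hoxb13 and Hoxc6, passed it in the JAG1-overexpressing libraries only, and none passed it in the control libraries only. Of the other 25 genes, 15 were at 0 in all 6 libraries, and the highest count among the rest was 9 reads, for Hoxa6 in a control library. Of the paralog numbers described here, groups 3, 4, 5, 7, 9 and 10 had a member over the limit in both populations, groups 2, 6 and 13 in JAG1-overexpressing cells only, and groups 8, 11 and 12 in neither. Group 12 was at 0 in all 6 libraries, and genes of groups 8 and 11 had at most 2 reads in a library. Levels under the limit could not be measured at this depth.

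**Figure D1:**
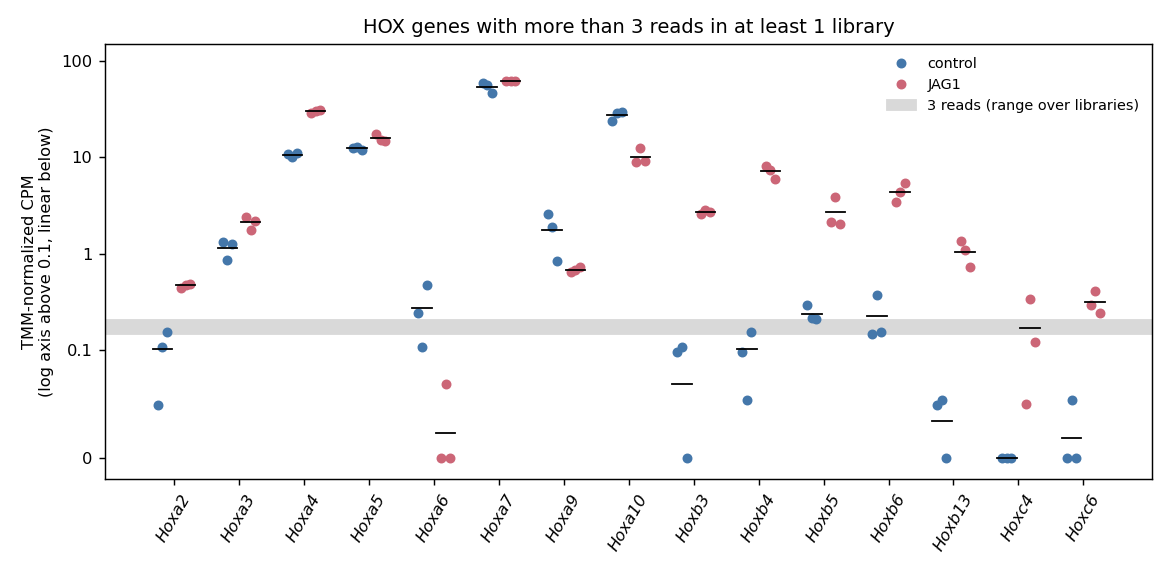
TMM-normalized CPM (log axis above 0.1, linear below) of 15 HOX genes with over 3 reads in at least 1 library; points are libraries, bars are group means of 3 libraries, and the grey band is the level of 3 reads. The Hoxb genes of JAG1-overexpressing libraries sit above the band while their control values lie near or below it, and Hoxa9 and Hoxa10 are lower in JAG1-overexpressing libraries.

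The sum over the 11 Hoxa genes (chr6:52155367-52260880, RefSeq coordinates of GRCm38 here and below) was 109 ± 5.01 CPM in control and 123 ± 1.38 CPM in JAG1-overexpressing cells. For the 10 Hoxb genes (chr11:96194316-96368254) it was 0.741 ± 0.148 against 18.2 ± 1.44 CPM, a ratio of 24.6. The 9 Hoxc genes (chr15:102921131-103036856) summed to 0.0358 ± 0.0620 and 0.490 ± 0.231 CPM, and the 9 Hoxd genes (chr2:74668225-74765142) to 0.0692 ± 0.0307 and 0.0405 ± 0.0701 CPM. All HOX genes together made up 0.0109% of the counts of a control library and 0.0142% of those of a JAG1-overexpressing library on average, so the whole family was a minor part of the transcriptome in both. Hoxa supplied 99.2 ± 0.124% of HOX reads in control and 86.7 ± 0.849% in JAG1-overexpressing cells, and Hoxb 0.673 ± 0.106% and 12.9 ± 0.741%, with no overlap between the groups.

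**Figure D2:**
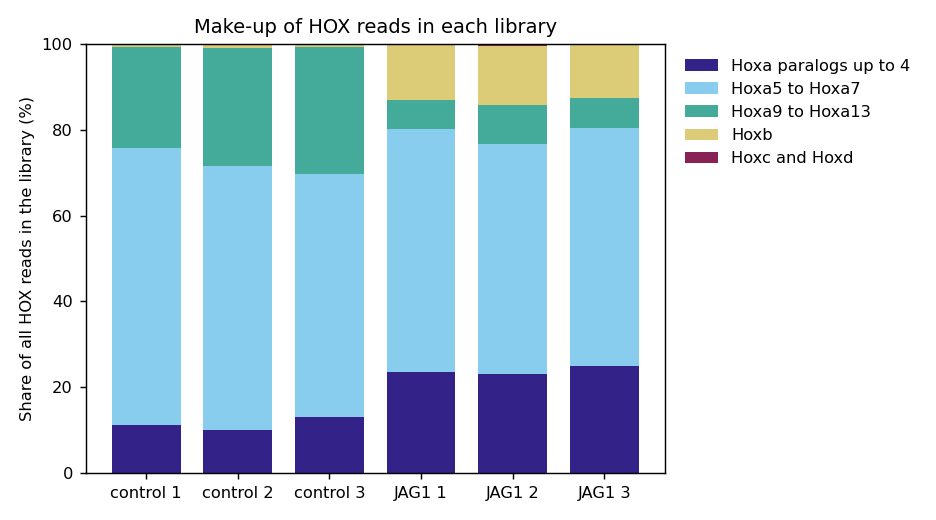
Share of all HOX reads (%) in each of the 6 libraries, stacked by gene segment: Hoxa paralogs up to 4, Hoxa5 to Hoxa7, Hoxa9 to Hoxa13, Hoxb, and Hoxc with Hoxd. The Hoxb segment averages 12.9% in JAG1-overexpressing and 0.673% in control libraries, and the Hoxa9 to Hoxa13 segment is narrower in each JAG1-overexpressing library than in any control library.

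Of the 12 HOX genes that were tested, 8 were higher, 2 were lower and 2 were not called in JAG1-overexpressing cells, where 27.4% of all tested genes were higher and 27.7% lower. These counts cannot be read against that background, because genes among them, the 5 Hoxb genes included, had enough reads for the test only in JAG1-overexpressing libraries. At a fold of at least 2, 6 HOX genes were higher and 2 lower, beside 5.46% and 8.49% of all tested genes. The groups did not overlap for 9 of the 12 with JAG1-overexpressing libraries above and for 2 with them below, beside 31.1% and 30.9% (62% in either direction) of all tested genes. These counts, too, cannot be read against the background, because the 6 and the 9 both include the 5 Hoxb genes.

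The 250 bases before the RefSeq start are shown for Hoxb4, which had the highest fold of the 12, for Hoxa9 and Hoxa10, which fell, and for Hoxa5, which lies between them and Hoxa4 in the cluster and changed little. RefSeq gives Hoxa10 a second start (window chr6:52234940-52235189), whose window, not shown, holds none of the motifs below. The windows shown overlap no exon of the GENCODE M21 annotation. Capitals mark the letters of 4 motifs that were picked with the expression results known, and a motif that lies on the other strand appears as its reverse complement. The motifs were the SMAD3 binding element, which reads GTCTG, the RBPJ core, which reads TGGGAA, the retinoic acid receptor half-site, which reads AGGTCA, and the HOX-PBX motif, which reads TGATNNAT with N for any base. SMAD3 is a partner of the JAG1 intracellular domain in the study, and RBPJ is the DNA-binding factor of Notch signaling, for which JAG1 is a ligand. The study also gives a longer form of the SMAD3 element, TWGTCTGV (W for A or T, V for any base but T), which was not searched for here.
Hoxb4 (chr11:96318017-96318266, plus strand): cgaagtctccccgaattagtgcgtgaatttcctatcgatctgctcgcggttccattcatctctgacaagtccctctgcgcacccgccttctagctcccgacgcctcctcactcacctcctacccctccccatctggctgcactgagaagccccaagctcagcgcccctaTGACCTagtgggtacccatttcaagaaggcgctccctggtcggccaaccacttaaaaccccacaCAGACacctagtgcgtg
Hoxa5 (chr6:52204588-52204837, minus strand): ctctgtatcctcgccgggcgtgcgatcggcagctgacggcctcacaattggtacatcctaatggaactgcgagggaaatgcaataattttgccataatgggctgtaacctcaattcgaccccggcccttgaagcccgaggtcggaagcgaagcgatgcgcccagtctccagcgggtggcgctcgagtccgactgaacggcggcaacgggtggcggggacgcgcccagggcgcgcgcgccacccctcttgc
Hoxa9 (chr6:52227371-52227620, minus strand): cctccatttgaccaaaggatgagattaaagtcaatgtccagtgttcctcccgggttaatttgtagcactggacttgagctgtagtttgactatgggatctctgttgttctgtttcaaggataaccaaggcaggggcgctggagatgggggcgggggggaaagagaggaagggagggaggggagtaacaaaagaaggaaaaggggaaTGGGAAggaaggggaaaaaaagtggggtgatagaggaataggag
Hoxa10 (chr6:52240855-52241104, minus strand): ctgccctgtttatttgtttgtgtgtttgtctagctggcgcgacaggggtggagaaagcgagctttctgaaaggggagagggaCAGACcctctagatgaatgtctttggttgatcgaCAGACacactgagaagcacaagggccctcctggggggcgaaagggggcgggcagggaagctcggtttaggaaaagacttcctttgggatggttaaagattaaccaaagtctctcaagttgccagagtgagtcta
Hoxb4 held GTCTG between positions −17 and −13 from the start and AGGTCA between −81 and −76. Hoxa10 held GTCTG between −168 and −164 and again between −134 and −130, Hoxa9 held TGGGAA between −44 and −39, and none of the 4 motifs was in the Hoxa5 window. Of 32851 mouse promoter windows of the same length, 42.2% held GTCTG, 21.6% TGGGAA, 14% AGGTCA and 7.68% TGATNNAT, so a match to any of them is common and is given as a description only.

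Within the Hoxa cluster, genes at the low numbered end were higher in JAG1-overexpressing cells, genes at positions 9 and 10 were lower, and of the genes between them Hoxa5 and Hoxa7 differed little while Hoxa6 had few reads, with fewer in JAG1-overexpressing cells. Of its 7 tested genes, 3 rose (Hoxa3, Hoxa4 and Hoxa5), 2 fell (Hoxa9 and Hoxa10) and 2 were not called, Hoxa7 among them. Hoxa2, which patterns the hindbrain and the second pharyngeal arch, held 1, 2 and 3 reads against 9, 7 and 8 reads, too few for the test. The ratio of its reads, scaled by library size, was 4.54, with a 95% interval of 1.81 to 13.6 that covers counting error only, as do all such intervals below.

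Hoxa3 (chr6:52169059-52213067), needed for the thymus and parathyroid, held 27, 16 and 24 reads in control libraries and 49, 26 and 36 in JAG1-overexpressing libraries. It rose from 1.15 ± 0.254 to 2.14 ± 0.329 CPM, a log2 fold change of 0.90 (SE 0.26, adjusted p = 0.0124), without overlap in CPM. The call was lost without control replicate 2 (log2 fold change 0.73, adjusted p = 0.0510) and without JAG1 replicate 1 (0.79, adjusted p = 0.0600). The annotated span of Hoxa3 runs across Hoxa4 to Hoxa6, and it shares exon sequence with a same-strand transcript and with antisense transcripts. Whether reads were counted by strand is not given in the sources used here, so its reads and theirs cannot be told apart there. The same limit holds for exons of Hoxa4, which overlap antisense Gm29430, and of Hoxa7, which overlap antisense Hoxaas3. Exons of Hoxa2 and Hoxa9 overlap the same-strand transcripts Gm28308 and Mir196b.

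Hoxa4 (chr6:52189682-52191703), expressed in the embryo from the caudal hindbrain backward, was the Hoxa gene with the clearest gain. It held 219, 187 and 214 reads in control and 585, 442 and 513 reads in JAG1-overexpressing libraries. All JAG1-overexpressing libraries were above all controls, and the level rose from 10.7 ± 0.589 to 30.2 ± 1.012 CPM, a log2 fold change of 1.5 (SE 0.08, adjusted p = 6.91e-08). Hoxa5 (chr6:52201754-52204587), needed for the development of the respiratory tract, held 254, 239 and 229 reads against 347, 223 and 241. It rose from 12.5 ± 0.433 to 15.8 ± 1.38 CPM, a log2 fold change of 0.34 (SE 0.10, adjusted p = 0.0112), and the call was lost without JAG1 replicate 1 (0.27, adjusted p = 0.0589). Its groups did not overlap in CPM, but the gap between them was narrow beside that of Hoxa4.

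Hoxa6, the next gene, was nearly silent. It held 5, 2 and 9 reads in control and 0, 1 and 0 reads in JAG1-overexpressing libraries, too few for the test, with a ratio of 0.0710 (95% interval 0.0017 to 0.457).

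Hoxa7 (chr6:52215623-52218573) was the most abundant HOX gene in every library and supplied 49.3 ± 4.19% of HOX reads in control and 44.1 ± 1.007% in JAG1-overexpressing cells. It held 1204, 1056 and 888 reads in control and 1246, 905 and 1031 reads in JAG1-overexpressing libraries, or 54.2 ± 6.85 and 62.3 ± 0.266 CPM. Its level lay above that of 70.8% of tested genes in control and of 73.6% in JAG1-overexpressing cells. The JAG1-overexpressing libraries lay just above the controls without overlap, but the log2 fold change of 0.20 (SE 0.09) was not called (adjusted p = 0.0687). The call depended on the setting, since it was made without control replicate 1 (0.27, adjusted p = 0.00847), with library size alone (0.22, adjusted p = 0.0442), with no filter (0.20, adjusted p = 0.0470) and with the replicate number as a block (0.21, adjusted p = 0.0370).

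The posterior Hoxa genes went the other way. Hoxa9 (chr6:52223097-52227370), a regulator of blood progenitors and a leukemia oncogene, held 52, 35 and 16 reads in control and 13, 10 and 12 reads in JAG1-overexpressing libraries. It fell from 1.76 ± 0.871 to 0.688 ± 0.0405 CPM, a log2 fold change of −1.36 (SE 0.41, adjusted p = 0.0153), without overlap although the controls spread widely. The call was lost without control replicate 1 (−0.97, adjusted p = 0.0581) and without JAG1 replicate 1 (−1.31, adjusted p = 0.0569). Hoxa10 (chr6:52231197-52240854), which patterns the lumbar region and the uterus, held 483, 544 and 572 reads in control and 178, 182 and 150 reads in JAG1-overexpressing libraries. The groups were far apart, at 27.7 ± 3.32 against 10.2 ± 2.04 CPM, a log2 fold change of −1.45 (SE 0.14, adjusted p = 4.92e-06). Hoxa10 was the second most abundant HOX gene in control cells and ranked behind Hoxa7, Hoxa4 and Hoxa5 in JAG1-overexpressing cells. Beyond it, Hoxa11 was at 0 in all libraries and Hoxa13 had 1 read in 1 control library.

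These opposite changes altered the make-up of Hoxa transcripts while their sum changed by a factor of 1.13. Paralogs 1 to 4 took 11.5 ± 1.43% of Hoxa reads in control and 27.5 ± 0.844% in JAG1-overexpressing cells, paralogs 5 to 7 took 61.4 ± 3.94% and 63.7 ± 1.28%, and paralogs 9 to 13 took 27.1 ± 3.10% and 8.84 ± 1.56%. The ratio of Hoxa4 to Hoxa10 reads ranged from 0.344 to 0.453 in control libraries and from 2.43 to 3.42 in JAG1-overexpressing libraries. A ratio within a library does not depend on how libraries are scaled, and its values show the crossing of the pair directly. Relative to Hoxa7, Hoxa4 went from a ratio of 0.200 to 0.485 and Hoxa10 from 0.520 to 0.163.

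Hoxb transcripts were at or near the limit of detection in control cells and were detected at low levels in JAG1-overexpressing cells. The 5 Hoxb genes concerned, Hoxb3, Hoxb4, Hoxb5, Hoxb6 and Hoxb13, all passed the test, while the other 5 Hoxb genes had at most 2 reads in any library. The detected genes are a contiguous run from Hoxb3 to Hoxb6 and the isolated Hoxb13 at the far end of the cluster. Across all tested genes, 84 (0.717%) had at most 3 reads in every control library and over 3 in every JAG1-overexpressing library, and Hoxb3, Hoxb4 and Hoxb13 were among them.

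Hoxb4 (chr11:96318267-96321638), known for its part in the renewal of blood stem cells, held 2, 1 and 3 reads in control and 165, 109 and 99 reads in JAG1-overexpressing libraries. The ratio of reads scaled by library size was 70.6 (95% interval 32.1 to 194), at 7.25 ± 1.13 CPM in JAG1-overexpressing cells. The fitted log2 fold change was 6.04 (SE 0.32, adjusted p = 3.77e-08). This level lay above that of 28.7% of tested genes, so Hoxb4 was a low transcript also where it was highest. Hoxb3 (chr11:96307101-96347930), a hindbrain gene that works beside Hoxa3, held 2, 2 and 0 reads against 52, 41 and 45, a ratio of 39.2 (95% interval 14.96 to 146). It reached 2.72 ± 0.116 CPM, with a fitted log2 fold change of 5.16 (SE 0.45, adjusted p = 2.31e-06).

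Hoxb5 (chr11:96303512-96306121), active in vagal neural crest, was the only Hoxb gene over 3 reads in every control library. It held 6, 4 and 4 reads in control and 43, 57 and 34 reads in JAG1-overexpressing libraries. The rise was from 0.240 ± 0.0487 to 2.71 ± 1.05 CPM, a log2 fold change of 3.43 (SE 0.40, adjusted p = 2.71e-05). Hoxb6 (chr11:96292814-96301569), a trunk gene, held 3, 7 and 3 reads against 69, 63 and 89. It rose from 0.227 ± 0.129 to 4.39 ± 0.985 CPM, a log2 fold change of 4.24 (SE 0.35, adjusted p = 1.71e-06). Neither gene had a JAG1-overexpressing library near the control values.

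Hoxb13 (chr11:96194316-96196610), a gene of the tail bud and the prostate, is separated from the other Hoxb genes by the widest gap in the cluster. It held 1, 1 and 0 reads in control and 27, 16 and 12 reads in JAG1-overexpressing libraries, a ratio of 31.2 (95% interval 8.25 to 264). The fitted log2 fold change was 4.70 (SE 0.65, adjusted p = 9.45e-05), at 1.06 ± 0.311 CPM. Hoxb7, with 1, 1 and 1 reads in control and 1, 2 and 0 reads in JAG1-overexpressing libraries, Hoxb8 and Hoxb2, with at most 1 read in a library, and Hoxb1 and Hoxb9, at 0 in all 6, lay at or under the limit in both groups. The exons of Hoxb3 and Hoxb5 overlap antisense transcripts, Hoxb3os and Hoxb5os. The Hoxb5os row held 0 reads in each control library and 3, 3 and 7 reads in the JAG1-overexpressing libraries, and Hoxb3os was not analysed here.

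In the Hoxc and Hoxd clusters, 6 of 9 genes each were at 0 in all 6 libraries. Hoxc6, a thoracic patterning gene, held 0, 1 and 0 reads in control and 6, 6 and 4 reads in JAG1-overexpressing libraries, a ratio of 18.2 (95% interval 2.82 to 762). Hoxc4 held 0 reads in each control library and 1, 5 and 2 reads in JAG1-overexpressing libraries, and Hoxc8 had 1 read in 1 control library. Both Hoxc genes had too few reads for the test, and both had their higher counts in JAG1-overexpressing libraries although the median of chromosome 15 was lower there. In Hoxd, which carries genes of limb and trunk, Hoxd8, Hoxd11 and Hoxd13 had at most 2 reads in a library, so a difference between the groups was not detectable at this depth.

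Grouped by paralog number, the summed levels followed the detected genes. Group 4 went from 10.8 ± 0.639 to 37.7 ± 0.521 CPM and group 3 from 1.22 ± 0.235 to 4.85 ± 0.219 CPM, each with a Hoxb gene added to its Hoxa gene. Group 6 went from 0.520 ± 0.117 to 4.73 ± 0.958 CPM, with Hoxa6 and Hoxb6 at few reads in control cells and Hoxb6 as its main member in JAG1-overexpressing cells. Group 5 went from 12.7 ± 0.448 to 18.5 ± 1.53 CPM, and group 7, which was Hoxa7 almost alone, from 54.3 ± 6.85 to 62.4 ± 0.236 CPM. Groups 9 and 10 rested on Hoxa9 and Hoxa10 alone, and fell with them.

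The antisense and intergenic RNAs of the clusters were examined next. Hotairm1 (chr6:52158524-52162020), a noncoding RNA at the low numbered end of the cluster, known from myeloid and neuronal differentiation, was more abundant than any coding HOX gene of JAG1-overexpressing cells. It held 876, 850 and 830 reads in control and 2354, 1469 and 1850 reads in JAG1-overexpressing libraries. It rose from 44.1 ± 1.33 to 110 ± 8.33 CPM, a log2 fold change of 1.32 (SE 0.07, adjusted p = 3.94e-08), without overlap. Hoxaas2, antisense to Hoxa3, held 24, 16 and 21 reads against 44, 23 and 30, a log2 fold change of 0.84 (SE 0.26, adjusted p = 0.0179). Its call was lost with DESeq2 (adjusted p = 0.0655), without control replicate 2 (0.72, adjusted p = 0.0697) and without JAG1 replicate 1 (0.70, adjusted p = 0.0881). Exons of Hoxaas2 and Hoxa3 overlap, and Hoxa3 held similar counts in the same libraries, 27, 16 and 24 against 49, 26 and 36. As the strand setting is not given, their reads cannot be told apart, and Hoxaas2 cannot be read as a gain separate from Hoxa3. Of the 10 noncoding rows found, Hotairm1 and Hoxaas2 were the only pair with enough reads for the test. Hoxaas3 had 4 to 6 reads in control and 6 to 8 in JAG1-overexpressing libraries, Halr1 had 1 read in all, and Hotair, Hottip, Haglr, Hoxa11os and Hoxd3os1 were at 0.

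The flanks of the clusters were compared to see whether the genes around them changed alike. Among the 20 nearest tested genes of Hoxa, 10 were higher and 1 lower (median 0.24 on the log2 scale), beside 28.1% higher and 24.3% lower on chromosome 6. The immediate neighbours were Skap2, at 0.22 (SE 0.06, adjusted p = 0.00677), and Hibadh, at 0.16 (adjusted p = 0.294). Nod1, a bacterial sensor, rose by 4.65 and Mturn by 2.31 at the far right of this stretch, and the most abundant neighbour, Cbx3, a heterochromatin protein, fell by 0.15, a call that was lost without control replicate 2 (−0.16, adjusted p = 0.0555) and without JAG1 replicate 1 (−0.14, adjusted p = 0.0619).

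Among the 20 nearest tested genes of Hoxb, 4 were higher and 9 lower, with a median of −0.17, beside 24.9% and 27.1% on chromosome 11. The nearest were Atp5g1, at 0.20 (adjusted p = 0.0185, up to 0.0632 with 1 library left out), and Skap1, at 2.13 (SE 0.47, adjusted p = 0.00264). Igf2bp1, an mRNA-binding protein of embryonic and tumor cells 4 tested genes away, rose from 18.6 to 76.7 CPM, a log2 fold change of 2.05 (SE 0.07, adjusted p = 1.82e-09), and 4833417C18Rik rose by 1.29. Gngt2 fell by 3.77, Abi3 by 1.16 and Phospho1 by 1.10, and the most abundant neighbour, Snf8, fell by 0.21. The lowest fitted value of the 5 Hoxb genes, 3.43, lay above that of each of these 20 neighbours. Fitted values resting on so few control reads depend on the prior count. The 5 also had enough reads for the test only in JAG1-overexpressing libraries, so high values were built into their selection. The contrast with the neighbours is therefore given as a description only.

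Near Hoxc, 15 of 17 tested neighbours were lower and 0 higher with edgeR, with a median of −0.58 beside the −0.53 of chromosome 15. At an unadjusted p under 0.05, 1 of them was higher, and DESeq2 and limma-voom called 0 higher. The changes at least 2-fold were Calcoco1 at −1.05, Nfe2, an erythroid factor, at −2.51, and Itga5, the fibronectin receptor chain, at −1.33, and the most abundant was Pcbp2 at −0.46. Near Hoxd, 3 of 20 were higher and 6 lower, with a median of −0.11, beside 24.5% and 27.2% on chromosome 2. Ttc30a1 rose by 6.48, Fkbp7 fell by 2.04, Chn1 by 1.62 and Prkra by 1.03, and Atp5g3, the most abundant, was at 0.08 (adjusted p = 0.198). Subtracting the median of the chromosome left Hoxa4 at 1.48, Hoxa10 at −1.48 and Hoxb4 at 6.04. After this subtraction the median was 0.32 over the 7 tested Hoxa genes and 4.70 over the 5 Hoxb genes, given as a description since the filter favoured Hoxb genes that were high in JAG1-overexpressing libraries.

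**Figure D3:**
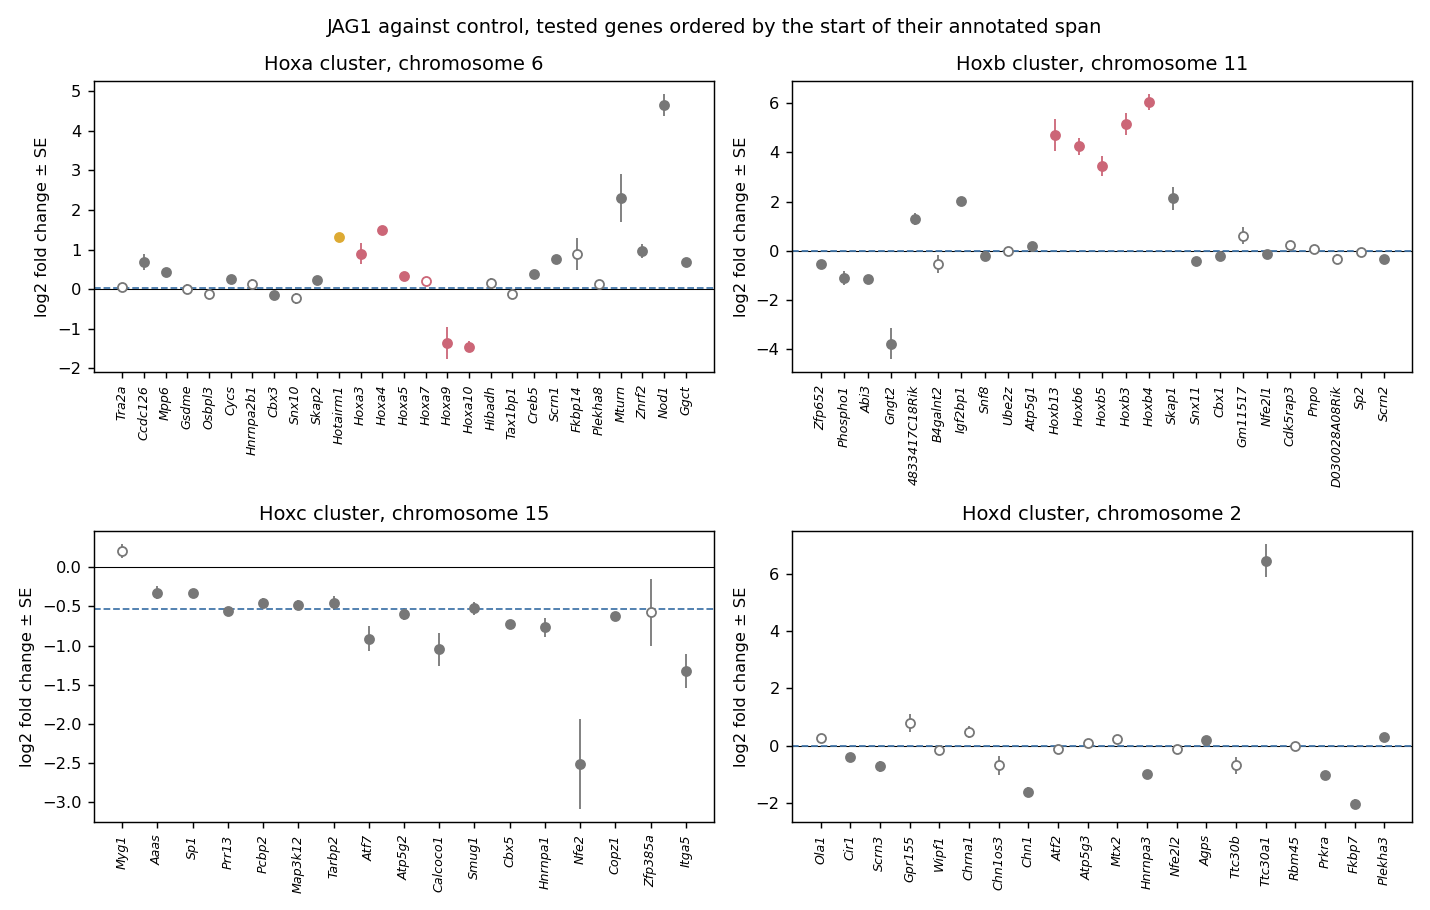
Log2 fold change (JAG1 against control, ± SE) of tested genes in and around each HOX cluster, ordered by the start of their annotated span; HOX genes are red, Hotairm1 is yellow, neighbours are grey, filled points passed the test, and the dashed line is the median of the chromosome. The tested Hoxb genes, which had enough reads for the test only in JAG1-overexpressing libraries, stand at 3.43 to 6.04, and their neighbours spread around 0. The Hoxa genes run from gains at the left to losses at Hoxa9 and Hoxa10. The Hoxc neighbours follow the −0.53 of their chromosome, and no HOX gene was tested in Hoxc or Hoxd.

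The next list held the TALE family, whose PBX, MEIS and PKNOX proteins bind DNA with HOX proteins, and Pbxip1, which is not a TALE protein. Most of its tested genes were lower in JAG1-overexpressing cells. Of 9 tested genes, 1 was higher and 6 were lower, with a median of −0.26, beside 27.4% higher, 27.7% lower and a median of 0.0039 for all tested genes. Meis1, the partner of Hoxa9 in leukemia, held 277, 235 and 241 reads in control and 74, 47 and 47 reads in JAG1-overexpressing libraries. It fell from 12.97 ± 0.616 to 3.26 ± 0.417 CPM, a log2 fold change of −1.98 (SE 0.13, adjusted p = 2.49e-07), with the groups far apart. Meis3, a hindbrain factor, fell likewise from 15.2 ± 0.589 to 4.03 ± 0.621 CPM (−1.90, SE 0.13, adjusted p = 2.71e-07). Pbxip1, which binds PBX proteins and blocks their contact with DNA, fell from 73.3 ± 9.01 to 36.6 ± 0.867 CPM (−1.003, adjusted p = 2.33e-06), and Pbx4 from 1.44 ± 0.357 to 0.562 ± 0.0701 CPM (−1.33, adjusted p = 0.00489). Pknox1 was at −0.25 (adjusted p = 0.0431) and lost its call with DESeq2 (adjusted p = 0.107) and in 5 of the 6 fits that left out 1 library, with adjusted p up to 0.132. Meis2 was the 1 that rose, from 42.5 ± 1.39 to 66.1 ± 0.971 CPM (0.64, SE 0.06, adjusted p = 5.16e-06). Pbx2, the most abundant member over both groups, overlapped between them at 88.7 ± 2.35 and 96.4 ± 12.8 CPM (0.12, adjusted p = 0.239).

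Of 21 retinoic acid and Cdx genes, 6 were tested, 2 were higher and 3 lower (27.4% and 27.7% of all tested genes), with a median of −0.19. Rdh10, which makes retinaldehyde, the precursor of retinoic acid, fell from 49.2 ± 7.60 to 15.2 ± 1.58 CPM (−1.70, SE 0.12, adjusted p = 4.46e-07). The receptor Rarg fell from 51.6 ± 4.86 to 20.4 ± 1.20 CPM (−1.33, SE 0.09, adjusted p = 2.74e-07), on chromosome 15 with its lower median of −0.53. Cyp26b1, which degrades retinoic acid, rose from 30.0 ± 1.88 to 41.0 ± 2.43 CPM (0.45, adjusted p = 5.09e-04). Of the enzymes that make retinoic acid, Aldh1a2 was at 0 in all libraries, and Aldh1a1, with too few reads for the test, held 2, 4 and 2 reads in control and 8, 5 and 6 reads in JAG1-overexpressing libraries (ratio 2.70, 95% interval 1.13 to 7.12). Rxra, the most abundant member, fell from 68.4 ± 5.32 to 54.0 ± 3.73 CPM (−0.34, adjusted p = 0.00304), and Rara was at −0.03 (adjusted p = 0.815). Rxrb was called higher although its libraries overlapped (0.20, adjusted p = 0.0446). It lost the call with DESeq2 (adjusted p = 0.0536), with upper-quartile scaling (adjusted p = 0.0762) and with the authors' log2 values in limma (adjusted p = 0.0548). The call was also lost in 4 of the 6 fits that left out 1 library, with adjusted p up to 0.163. Cdx4, one of the caudal factors that act on posterior HOX genes, was at 0, as were Rxrg, Cyp26c1 and Crabp1, and no Cdx gene had enough reads for the test.

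Polycomb proteins, which keep HOX clusters silent, were all expressed. All 24 were tested, and 3 rose and 9 fell (27.4% and 27.7% of all tested genes), with log2 fold changes between −0.88 and 0.67 and a median of −0.03. The catalytic subunit Ezh2 was at 130 ± 8.22 and 125 ± 3.74 CPM (−0.06, adjusted p = 0.443) and Bmi1 at 62.7 ± 1.59 and 63.9 ± 6.98 CPM (0.03, adjusted p = 0.769), and both overlapped between the groups. Cbx6, the most abundant member, fell from 565 ± 16.0 to 444 ± 7.004 CPM (−0.35, adjusted p = 6.76e-05) and lies on chromosome 15. Of 13 Trithorax genes and H3K27 demethylases, which oppose Polycomb, 3 were higher and 4 lower, near the 27.4% and 27.7% of all tested genes, with a median of −0.10 and log2 fold changes between −0.61 and 0.77. Ash2l, the most abundant, fell from 213 ± 13.7 to 162 ± 0.175 CPM (−0.40, adjusted p = 1.22e-04), Kmt2a, which maintains HOX expression, fell by 0.46 (adjusted p = 0.00596), and Men1 rose by 0.77 on chromosome 19, where the median was 0.61.

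Transcription factors of the forebrain were expressed in the same libraries as the HOX genes. Of 18 rostral brain factors, 8 were tested, 4 were higher and 0 lower (27.4% and 27.7% of all tested genes), with a median of 0.24. Six3, a factor of the anterior forebrain, rose from 171 ± 10.9 to 201 ± 11 CPM (0.23, adjusted p = 0.00909), Lhx2, of the cortex and eye, from 28.7 ± 2.32 to 46.5 ± 1.88 CPM (0.70), and Dlx2, of ventral forebrain, from 0.822 ± 0.256 to 2.10 ± 0.320 CPM (1.35, SE 0.29, adjusted p = 0.00219). Emx2 rose by 0.92 on chromosome 19. The count of lower calls was 0 with edgeR, also at an unadjusted p under 0.05, and 0 with DESeq2 and with limma-voom.

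Among 20 midbrain and hindbrain factors, 7 were tested, 3 were higher and 2 lower (27.4% and 27.7% of all tested genes), with a median of −0.00072. Phox2a, a factor of noradrenergic and cranial motor neurons, was the most abundant at 186 ± 13.3 and 186 ± 8.84 CPM (adjusted p = 0.993). Pax2, of the midbrain to hindbrain border, rose from 0.431 ± 0.130 to 3.53 ± 0.393 CPM (3.02, SE 0.27, adjusted p = 3.36e-06), on chromosome 19. En1, of the same border, rose by 0.92 from 1.78 ± 0.135 CPM, and Irx5 by 0.65. Irx3 fell by 0.74. En2, Gbx2 and Pax5 were at 0. Each population therefore held transcripts of forebrain factors and of HOX genes, and a bulk sample does not show whether they were in the same cells.

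**Figure D4:**
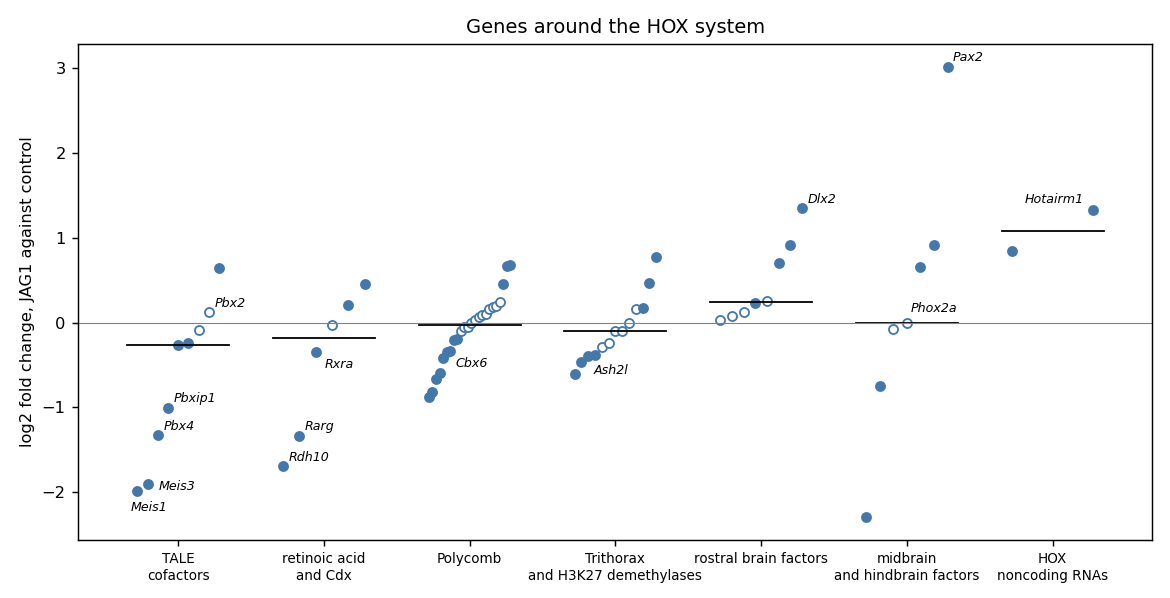
Log2 fold change (JAG1 against control) of the tested members of 7 lists of genes that act with or on HOX genes; each point is a gene, filled points passed the test, and horizontal bars are medians. TALE cofactors have a median of −0.26, with Meis1 and Meis3 lowest, and both HOX noncoding RNAs lie above 0. Of these, Hoxaas2 overlaps exons of Hoxa3, and their reads cannot be told apart.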

How the data were processed

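RNA of 3 control and 3 JAG1-overexpressing libraries was analysed from 1 deposited table per library of 23282 gene rows, which hold the authors' raw read counts on 3' ends (QuantSeq) and the log2 of the authors' normalized read count. The submitters' processing notes name Bowtie2, bedtools and edgeR and the builds GRCm38 and mm10; versions, annotation and the strand setting of the counting are not given in the sources used here. Symbols were matched to RefSeq GRCm38.p6 (22059 by symbol, 1090 by synonym, 133 by neither); 22 of the 39 HOX genes had a RefSeq promoter window.

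Raw counts were analysed in R 4.3.3 with edgeR 4.0.16. After filterByExpr (minimum count 10), 11712 genes were tested, with TMM scaling, a quasi-likelihood test and Benjamini-Hochberg adjustment over all of them, at a threshold of 0.05. The script was tested on simulated data. Alternatives were DESeq2 1.42.0, limma-voom (limma 3.58.1), the authors' log2 values in limma, other scalings and filters, a replicate block, and leaving out each library. Pairs of libraries of a group differed by more than sampling noise (chi-square per degree of freedom at least 3.71). The precision of a level is set by its reads, down to the limit of 3 reads, and intervals cover counting error only, as reads without molecular identifiers are not independent molecules.

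The members and lists were chosen with earlier results of these data known. Every HOX gene is accounted for; of the lists and flanks, genes past the threshold with a fold of at least 2 (at most 8 per list) and the most abundant gene were named. Other genes named with values were chosen after their values were seen. Some genes that these rules would name are not reported here.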

Additional observations from a re-analysis of the deposited data

How the results depend on the processing

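The counts of HOX genes called higher and lower lay between 6 and 12 and between 2 and 3 over all settings with 6 libraries. Leaving out each library in turn gave 6 to 9 higher and 1 to 2 lower HOX genes, and 15 to 20 higher and 20 to 23 lower among the lists (18 and 24 with all libraries). With at least 1 CPM in every library as the limit of detection, 4 HOX genes were detected in control and 9 in JAG1-overexpressing cells, in place of 8 and 14; leaving out a library gave 8 to 9 and 14. Without the most abundant gene of each cluster, the sum for Hoxa was 54.7 CPM in control and 60.4 CPM in JAG1-overexpressing cells. For Hoxb it was 0.638 and 10.99 CPM, and for Hoxc 0.0179 and 0.172 CPM. These sums were lower because a gene was taken out, and JAG1-overexpressing cells remained the higher group in each of these clusters. Relative to the nearest tested genes in place of the chromosome, the median over the tested Hoxa genes was 0.103 in place of 0.320. For single HOX genes, 170 of 179 alternative fits kept the direction and the side of the threshold, 5 lost the call, 4 gained it and 0 changed sign; the causes were not tested. With no filter, Hoxa2 (log2 fold change 2.11, adjusted p = 0.0214), Hoxa6 (−3.41, adjusted p = 0.0231), Hoxc4 (4.601, adjusted p = 0.0338) and Hoxc6 (3.73, adjusted p = 0.00848) were called as well, on few reads. A TMM scaling computed without chromosomes 15 and 19, chosen after seeing the data, gave 8 higher and 2 lower HOX genes. The labels do not say whether same-numbered libraries of the groups were prepared together. The deviations of same-numbered libraries from their group means correlated at 0.148, 0.0614 and 0.119, each library best with its own number. Those of differently numbered libraries correlated at −0.144 to 0.0109. Whether same-numbered libraries share a preparation was not tested, and the main fit does not use the number. With the replicate block, 9 HOX genes were higher and 2 lower, and 20 and 24 genes of the lists. Depth limits the genes with fewer than about 10 reads, for which the absence of a call says nothing.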
